A study of Homo sapiens with 12 samples.

Results

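The genes described here encode chaperones and folding enzymes of the endoplasmic reticulum, with XBP1, a transcription factor that acts on such genes. They are HSPA5, HSP90B1, PDIA3, PDIA4, PDIA6, CALR, CANX, DNAJB9, SDF2L1 and XBP1, chosen by symbol in the authors' gene table. All 10 were found once each among 57773 genes, and all 10 passed the expression filter that left 22831 genes for testing. All libraries came from 1 established line, PANC-1, which was derived from a human pancreatic carcinoma. RNA was sequenced after 24 h in 4 groups of 3 libraries. Vehicle cells received DMSO, the solvent. The other groups received 30 nM chaetocin, a fungal product that inhibits histone methyltransferases, 90 nM MLN8237, an inhibitor of Aurora A kinase also called alisertib, or both compounds at those doses. The code in the labels of the combination differs from MLN8237 by 1 digit and was read as MLN8237.

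Proteins that enter the endoplasmic reticulum are folded there by HSP70 and HSP90 family chaperones, by lectin chaperones that bind glycoproteins, and by disulfide isomerases. When unfolded proteins accumulate, the sensors IRE1, PERK and ATF6 raise the expression of many of these genes, a program called the unfolded protein response. IRE1 acts by splicing the XBP1 transcript, and a gene count does not separate the spliced from the unspliced form. In the normal pancreas this machinery is best known from acinar cells, which secrete digestive enzymes.

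Total counts ran from 49439795 to 63747510 per library. Whether replicates were separate cultures is not in the labels. The p-values therefore reflect the spread between these libraries only, and that spread may be technical. The first principal component of log2 CPM, with 59.9% of the variance, separated the 6 libraries with chaetocin from the 6 without, and the second, with 14.6%, separated the 3 treated libraries numbered 3 from the others, with MLN8237 replicate 3 farthest out. Marker values in this paragraph are CPM by total counts alone, and all other CPM values are TMM-scaled (counts scaled to a library size adjusted by TMM). Of the carcinoma line markers, KRT8 ranged from 1070 to 2340 CPM and KRT18 from 746 to 1780, whereas KRT7 reached only 6.69. The summed level of the 6 carcinoma markers was 8650 to 9210 CPM with vehicle and 5890 to 6060 with chaetocin, 8950 to 9590 with MLN8237 and 4620 to 5720 with both, and 5 of the 6 were lower with chaetocin. The 8 acinar markers summed to between 0.489 and 1.07 CPM, with PNLIP at 0 in all 12 libraries, and INS was also at 0 in all 12. Of the immune markers, PTPRC stayed at or under 0.989 CPM while CD68 ran from 149 to 244. The endothelial marker VWF had no count with vehicle, and the endothelial sum was 1.34 to 4.36 CPM in the libraries with chaetocin. The part of these marker shifts in the results below was not tested.

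The promoters are shown first because most of these genes carry the same sequence element. The endoplasmic reticulum stress element (ERSE) is CCAAT, then 9 bases, then CCACG, and ERSE-II is ATTGG, then 1 base, then CCACG. Windows from 250 bases before to 50 bases after each annotated start were taken from RefSeq on GRCh38.p14 and searched on both strands. Of the 10 genes, 9 were in that table, PDIA3 being the exception. ERSE was found in windows of 6 of those 9 genes, HSPA5, HSP90B1, PDIA6, CALR, CANX and XBP1, and in those of 25 of all 27305 genes in the table (0.0916%). ERSE-II was found in 1 of the 9, SDF2L1, and in 19 of all genes (0.0696%). The core TGACGTGG, bound by XBP1 in textbook accounts, was in none of the 9 and in windows of 0.927% of all genes. CCACG by itself, which every ERSE and ERSE-II contains, was in all 9 and in windows of 42.1% of all genes. PDIA4 and DNAJB9 held neither ERSE nor ERSE-II in these windows. These matches are descriptions of letters and do not show binding.

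The promoters of the gene with the best known ERSE (HSPA5), of the gene that fell most (CALR) and of a gene that fell little (HSP90B1) are given 5′ to 3′ on the gene's strand, as the 250 bases before the start. Capitals mark the 2 arms of each ERSE.
HSPA5 promoter, chr9:125241344-125241593 (- strand): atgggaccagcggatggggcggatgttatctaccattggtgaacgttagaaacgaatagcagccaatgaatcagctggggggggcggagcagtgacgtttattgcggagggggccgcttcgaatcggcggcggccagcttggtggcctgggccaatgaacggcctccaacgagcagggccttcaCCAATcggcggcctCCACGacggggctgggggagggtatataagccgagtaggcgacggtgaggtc
CALR promoter, chr19:12938359-12938608 (+ strand): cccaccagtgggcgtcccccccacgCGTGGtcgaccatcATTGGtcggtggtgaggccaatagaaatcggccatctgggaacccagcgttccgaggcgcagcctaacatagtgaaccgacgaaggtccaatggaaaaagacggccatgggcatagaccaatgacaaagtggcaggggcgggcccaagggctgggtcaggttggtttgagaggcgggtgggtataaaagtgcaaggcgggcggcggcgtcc
HSP90B1 promoter, chr12:103930160-103930409 (+ strand): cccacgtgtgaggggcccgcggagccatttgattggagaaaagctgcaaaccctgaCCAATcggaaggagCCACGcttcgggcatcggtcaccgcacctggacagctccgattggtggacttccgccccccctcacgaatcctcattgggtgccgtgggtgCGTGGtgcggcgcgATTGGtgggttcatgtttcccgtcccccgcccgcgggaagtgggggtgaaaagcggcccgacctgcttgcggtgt
The match in HSPA5 lay 66 to 48 bases before the start. HSP90B1 held 2 matches, at 194 to 176 and at 89 to 71 bases before the start, the second on the opposite strand, where the arms read CGTGG and ATTGG. The single match in CALR lay 225 to 207 bases before the start, also on the opposite strand.

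For the other genes the match is shown with the bases on each side, with the arms again in capitals.
PDIA6, chr2:10812838-10812886 (- strand): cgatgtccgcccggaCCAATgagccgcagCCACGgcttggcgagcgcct
CANX, chr5:179698763-179698811 (+ strand): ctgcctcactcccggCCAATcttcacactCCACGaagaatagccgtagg
XBP1, chr22:28800588-28800636 (- strand): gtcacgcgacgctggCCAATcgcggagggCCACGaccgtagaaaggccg
SDF2L1, chr22:21642099-21642139 (+ strand): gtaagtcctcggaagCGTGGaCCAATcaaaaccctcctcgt
These matches began 86 bases before the start in PDIA6, 52 in XBP1 and 188 in SDF2L1, where ERSE-II lay on the opposite strand. No relation between the matches and the changes below was tested. CANX has 3 annotated starts in the table, and the same match began 151, 189 or 9 bases before them.

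**Figure D1:**
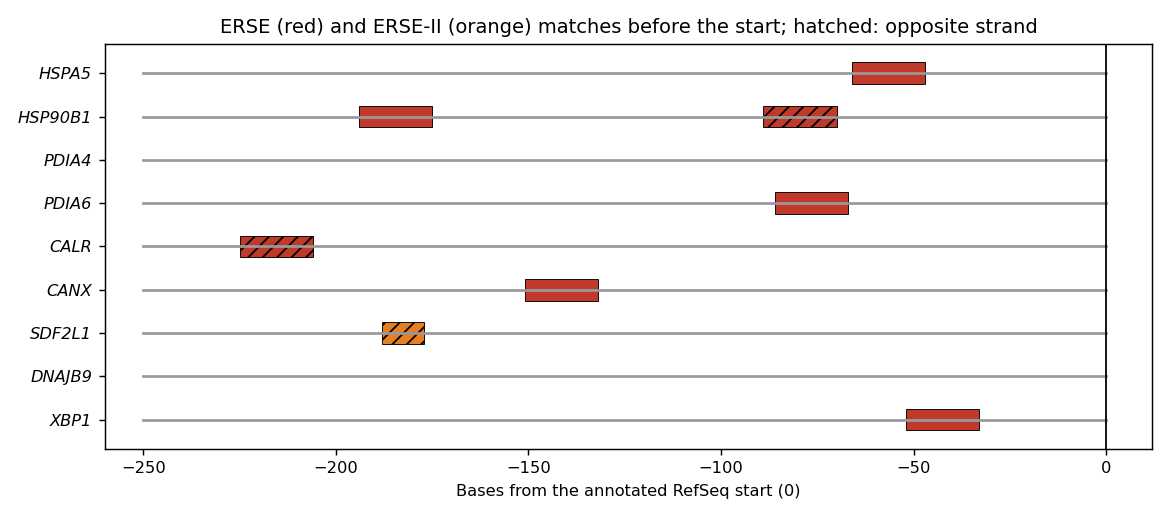
ERSE (red) and ERSE-II (orange) matches in the 250 bases before the annotated start of 9 genes, with bases from the start on the x axis; hatching marks the opposite strand, and CANX is drawn from the nearest start that its match wholly precedes. HSP90B1 holds 2 matches, and PDIA4 and DNAJB9 hold none.

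Levels between genes are compared as CPM per kb of the gene length in the authors' table. In vehicle cells CALR, a lectin chaperone of the lumen, was highest at 386.7 ± 18.73 CPM per kb (SD, n = 3). HSPA5 followed at 163.4 ± 1.44 and CANX, the membrane-bound lectin chaperone, at 162.5 ± 6.431, and these neighbours did not differ beyond their spread. PDIA4 was at 129.7 ± 1.43, HSP90B1 at 120.6 ± 2.509, PDIA3 at 114.0 ± 3.22 and PDIA6 at 103.0 ± 3.69. A wide gap separated these from SDF2L1 at 25.39 ± 3.111, XBP1 at 13.7 ± 0.9142 and DNAJB9 at 6.647 ± 0.7958. The deposited RPKM values gave the same order. By this measure CALR ranked 85 among the 22831 tested genes in vehicle cells, HSPA5 260 and DNAJB9 7793.

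**Figure D2:**
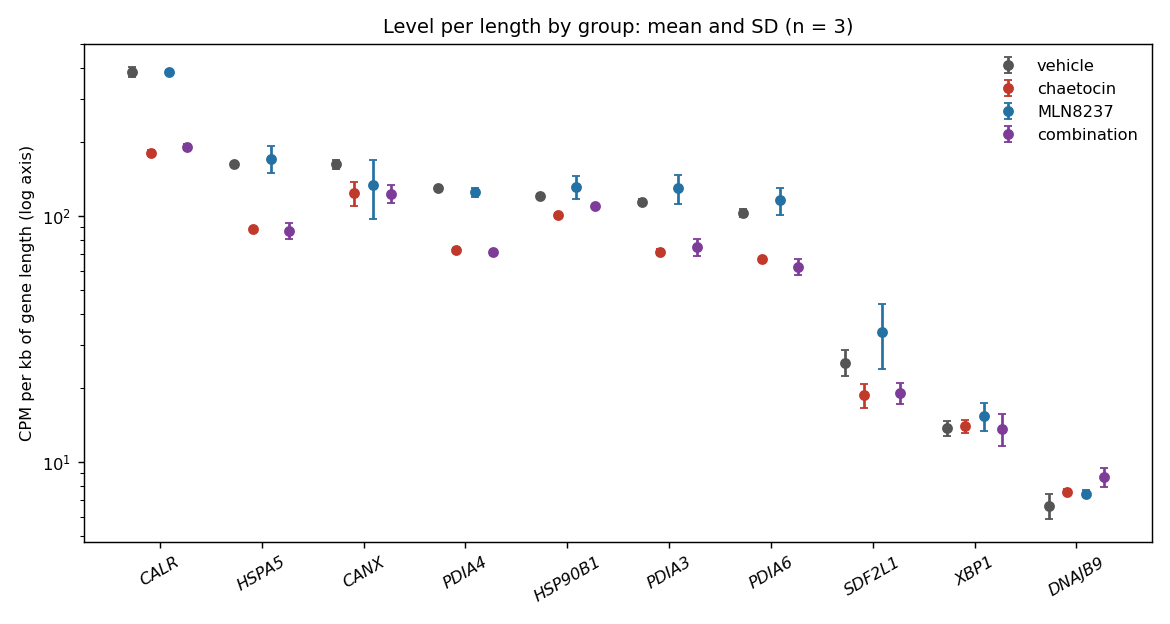
CPM per kb of gene length on a log axis for each of the 10 genes, ordered by vehicle; points are group means and bars the SD over 3 libraries. CALR is the highest with vehicle at 386.7 CPM per kb and DNAJB9 the lowest at 6.647.

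Chaetocin alone lowered 6 of the 10 genes and raised none at an adjusted p under 0.05 in edgeR's quasi-likelihood test. They were CALR, HSPA5, PDIA4, PDIA3, PDIA6 and HSP90B1. Across all tested genes 24.5% were called in this comparison and 11.9% were called lower. The median log2 fold change of the 10 genes was -0.54, against 0.01 for all tested genes, and their range ran from -1.1 to 0.19. The libraries of the 2 groups did not overlap for 8 of the 10 genes, which was also so for 48.0% of all tested genes. In bulk RNA, fewer cells of a type and less RNA per cell cannot be told apart. Summed over the 10 genes, the level was 4685 ± 123 CPM with vehicle and 2979 ± 107 with chaetocin (SD, n = 3).

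HSPA5 encodes BiP, the HSP70 chaperone of the lumen, which also binds the sensors of the unfolded protein response. It stood at 633.6, 637.0 and 644.6 CPM in the vehicle libraries and at 348.2, 341.7 and 346.4 in the chaetocin libraries. With the combination it was at 312.5, 354.2 and 355.9 CPM, and with MLN8237 alone at 607.2, 632.9 and 766.8. All 6 libraries with chaetocin lay below all 6 without it, a separation whose share among all tested genes was not counted. The log2 fold change was -0.89 ± 0.0979 (SE, adjusted p = 5.84e-05) with chaetocin and -0.91 ± 0.098 (adjusted p = 2.58e-05) with both compounds.

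HSP90B1 encodes GRP94, the HSP90 chaperone of the lumen, which works after BiP on a narrower set of proteins. Its vehicle libraries were at 562.2, 578.2 and 555.3 CPM and its chaetocin libraries at 482.9, 462.1 and 470.4. Although the groups did not overlap, the difference was small, -0.26 ± 0.0865 on the log2 scale (adjusted p = 0.043). The call was lost in 9 of 14 alternatives, among them the removal of any of the 6 libraries compared, with adjusted p up to 0.19. With both compounds the libraries were at 507.8, 515.0 and 521.8 CPM, and the log2 fold change of -0.13 (95% interval -0.32 to 0.05) was not called. The ratio of HSPA5 to HSP90B1 counts went from 1.13 ± 0.0297 with vehicle to 0.732 ± 0.00982 with chaetocin and 0.662 ± 0.0403 with both (SD, n = 3). MLN8237 libraries had a ratio of 1.08 ± 0.0291.

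The lectin chaperones CALR and CANX bind the same trimmed sugar on glycoproteins, CALR as a soluble protein and CANX in the membrane. CALR stood at 1086, 1071 and 991.6 CPM with vehicle, 501.9, 497.7 and 474.5 with chaetocin and 512.3, 506.4 and 533.9 with both compounds. CALR had the lowest log2 fold change of the 10 in both comparisons. It fell by 53.2% with chaetocin (log2 fold change -1.1 ± 0.0783, adjusted p = 2.14e-06) and fell by 50.7% with the combination (-1.02 ± 0.0782, adjusted p = 2.4e-06). CANX stood at 1011, 1054 and 973.8 CPM with vehicle and at 854.2, 777.1 and 680.0 with chaetocin. These libraries did not overlap either, but the change of -0.39 ± 0.166 missed the threshold (adjusted p = 0.104, 95% interval -0.75 to -0.04). Its adjusted p was 0.00515 without the treated libraries numbered 3 and 0.00579 with only the groups compared. With replicate number as a block it was 0.0229. Only these 3 of 14 alternatives called CANX with chaetocin, and its adjusted p ran up to 0.284. The ratio of CALR to CANX counts was 1.04 ± 0.0331 with vehicle and 0.642 ± 0.0551 with chaetocin (SD, n = 3).

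PDIA3, PDIA4 and PDIA6 are disulfide isomerases, and PDIA3 works with the lectin chaperones. PDIA4 was at 424.2, 430.1 and 420.8 CPM with vehicle, 244.5, 237.7 and 233.0 with chaetocin and 227.6, 236.7 and 235.3 with both compounds. Its log2 fold change was -0.83 ± 0.0735 (adjusted p = 9.88e-06) with chaetocin and -0.87 ± 0.0735 (adjusted p = 4.56e-06) with the combination. PDIA3 and PDIA6 fell by less.

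PDIA3 went from 495.9, 485.5 and 468.8 CPM to 303.7, 295.9 and 311.3 with chaetocin, and so fell by 37.2% (adjusted p = 0.000578). PDIA6 went from 437.4, 422.1 and 407.1 CPM to 274.9, 273.3 and 271.3, and so fell by 35.3% (adjusted p = 0.000673). With both compounds PDIA3 was at 288.2, 328.8 and 334.2 CPM and PDIA6 at 233.0, 270.5 and 261.6. For each of these 3 isomerases all 6 libraries with chaetocin lay below all 6 without it. The same held for HSPA5, CALR, HSP90B1 and SDF2L1, but not for CANX, DNAJB9 and XBP1. How many of all tested genes separate in this way was not counted. In comparisons of 3 libraries with 3, chaetocin and vehicle did not overlap for 48.0% of all tested genes. The combination and MLN8237 alone did not overlap for 51.3%.

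SDF2L1 encodes a partner of DNAJ cochaperones of the lumen. It was at 31.84, 26.20 and 25.68 CPM with vehicle, 18.61, 19.84 and 23.05 with chaetocin and 18.69, 22.12 and 22.11 with both. The libraries did not overlap with vehicle, as for 48.0% of all tested genes with chaetocin and 54.8% with both. The changes of -0.44 ± 0.174 (adjusted p = 0.0806) and -0.41 ± 0.174 (adjusted p = 0.0778) missed the threshold. Without the treated libraries numbered 3 the adjusted p was 0.00201 with chaetocin and 0.0041 with both, and with only the groups compared it was 0.0108 and 0.0141. With replicate number as a block it was 0.0385 and 0.0398. Of 14 alternatives only 3 called the change with chaetocin and 4 the change with both. The adjusted p ran up to 0.25 with chaetocin and 0.253 with both.

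DNAJB9 encodes ERdj4, a DNAJ cochaperone of BiP. It was not called lower in any comparison. Its libraries were at 21.26, 18.53 and 16.78 CPM with vehicle, 20.99, 21.62 and 21.93 with chaetocin, and 26.83, 22.42 and 24.95 with both. The vehicle and chaetocin libraries overlapped (log2 fold change 0.19, 95% interval -0.03 to 0.41, adjusted p = 0.204). All 3 combination libraries were above all 3 vehicle libraries, a comparison in which 54.8% of all tested genes did not overlap. The rise of DNAJB9 was 0.39 ± 0.102 (adjusted p = 0.00864). That call was lost without vehicle replicate 3, with an adjusted p of 0.0553.

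XBP1 was at 44.51, 40.92 and 39.06 CPM with vehicle, 41.02, 40.75 and 45.19 with chaetocin and 37.24, 38.51 and 48.41 with both. These groups overlapped throughout. The 95% interval of its log2 fold change was -0.23 to 0.29 with chaetocin and -0.26 to 0.25 with the combination, so a change as large as that of HSPA5 lay outside both intervals.

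**Figure D3:**
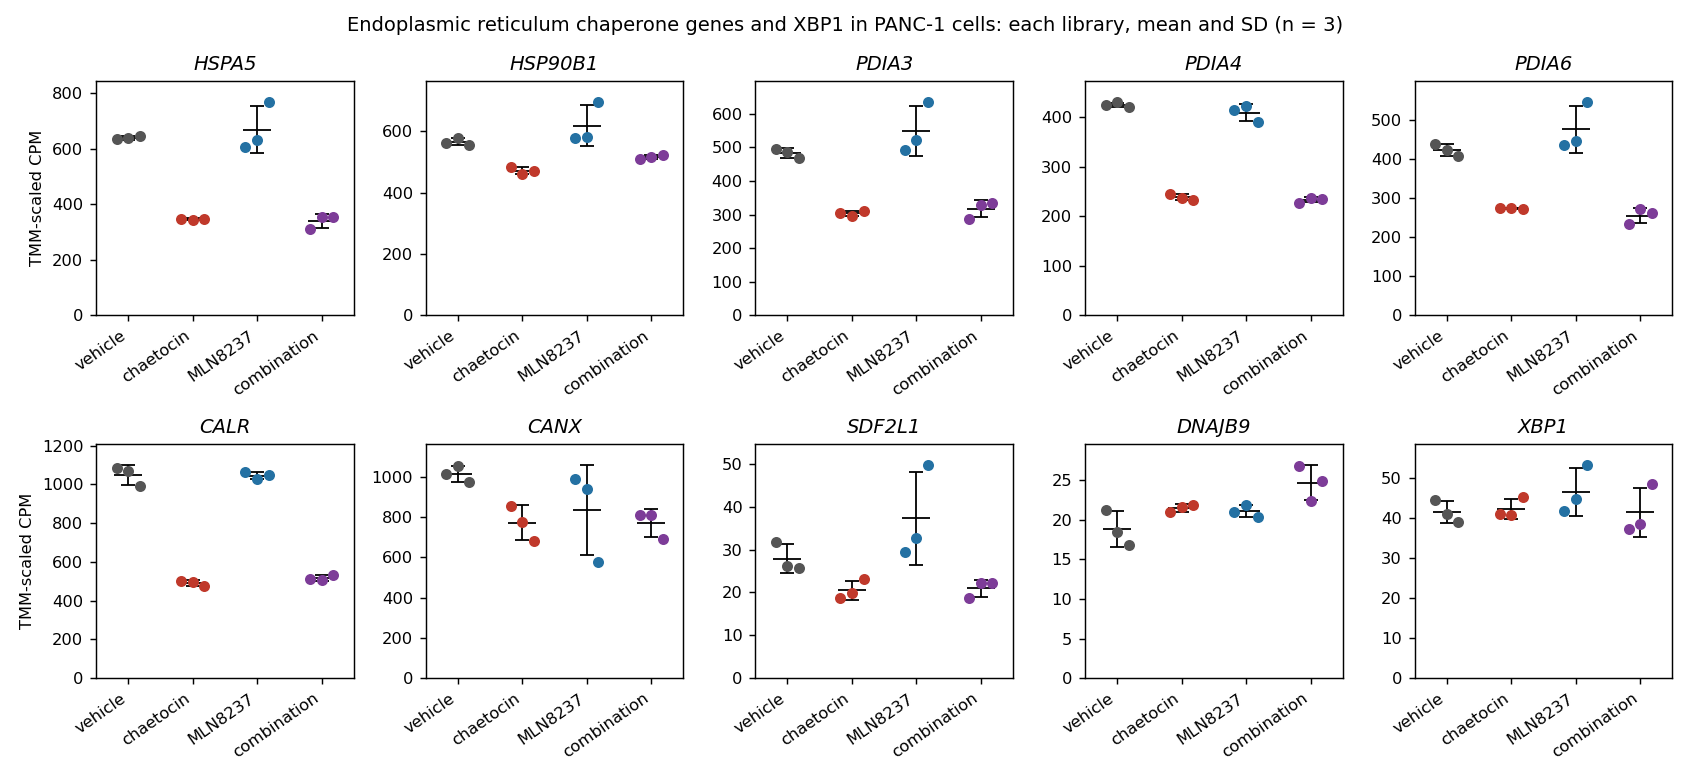
TMM-scaled CPM of each gene in each library (points, replicates 1 to 3 from left to right), with the group mean and SD (n = 3), each y axis starting at 0. For HSPA5 the libraries with chaetocin lie between 312.5 and 355.9 CPM and those without between 607.2 and 766.8, whereas for XBP1 the ranges of 37.24 to 48.41 and 39.06 to 53.23 overlap.

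With the combination, 5 of the 10 genes were lower than with vehicle (HSPA5, PDIA3, PDIA4, PDIA6 and CALR) and 1 was higher (DNAJB9). Across all tested genes 38.5% were called, 18.3% lower and 20.1% higher. The median log2 fold change of the 10 was -0.51, against 0.02 for all tested genes. The libraries of the 2 groups did not overlap for 9 of the 10 genes, as for 54.8% of all tested genes. This comparison and the one of chaetocin with vehicle share the vehicle libraries, so their likeness is not independent evidence.

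With MLN8237 alone none of the 10 genes was called at an adjusted p under 0.05, in edgeR or in any alternative, where 0.00438% of all tested genes were called. Adjusted p-values ran from 0.516 to 0.985, and 1 of the 10 genes, SDF2L1, had an unadjusted p under 0.05. So did 1938 of all 22831 tested genes. The libraries did not overlap with vehicle for 1 of the 10, HSP90B1, as for 14.0% of all tested genes. SDF2L1 was at 29.48, 32.62 and 49.78 CPM in the MLN8237 libraries, which overlapped those of vehicle (log2 fold change 0.42, 95% interval 0.04 to 0.79, adjusted p = 0.516). MLN8237 replicate 3 was the highest of the 12 libraries for HSPA5, HSP90B1, PDIA3, PDIA6, SDF2L1 and XBP1. The same library was the lowest of the 12 for CANX, at 576.6 CPM against 987.4 and 937.4 in the other MLN8237 libraries. For CALR the MLN8237 libraries were at 1062, 1028 and 1048 CPM, and the 95% interval of the log2 fold change was -0.17 to 0.16.

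Between the combination and chaetocin alone none of the 10 genes was called by edgeR (adjusted p from 0.469 to 0.999), and 0% of all tested genes were called. None of the 10 had an unadjusted p under 0.05 there, and 2677 of all 22831 tested genes did. DESeq2 called 296 genes and none of the 10. Without combination replicate 2, edgeR called 573 genes and again none of the 10. The libraries of the 2 groups did not overlap for 4 of the 10 genes, which was also so for 18.7% of all tested genes. The intervals bound the differences: for HSPA5 the log2 difference was -0.02 (95% interval -0.23 to 0.19) and for CALR 0.07 (-0.09 to 0.24). For DNAJB9 it was 0.2 (-0.02 to 0.42).

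The interaction compares the log2 change under the combination with the 2 single-compound changes added together. By edgeR it was not called for any of the 10 genes (adjusted p from 0.382 to 0.995) or for any tested gene, 0% of 22831. None of the 10 had an unadjusted p under 0.05, and 3108 of all 22831 tested genes did. DESeq2 called 15 genes, none of them among the 10. The departures farthest from 0 among the 10 were SDF2L1 at -0.39 ± 0.245, CANX at 0.28 ± 0.235 and PDIA6 at -0.27 ± 0.139 (SE).

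Set against MLN8237 alone, the combination lowered 7 of the 10 genes, where 45.9% of all tested genes were called and 22.7% called lower. They were the 5 that fell against vehicle, with HSP90B1 (-0.26 ± 0.0865, adjusted p = 0.0241) and SDF2L1 (-0.83 ± 0.174, adjusted p = 0.00204). The HSP90B1 call was lost in 5 of 14 alternatives, with no filter (adjusted p = 0.0709), the stricter filter (0.0705), only the groups compared (0.135), without the treated libraries numbered 3 (0.0619) and without combination replicate 1 (0.0757). CANX was not called (-0.11, adjusted p = 0.597) but was without MLN8237 replicate 3 (adjusted p = 0.0167), the library in which it was lowest.

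**Figure D4:**
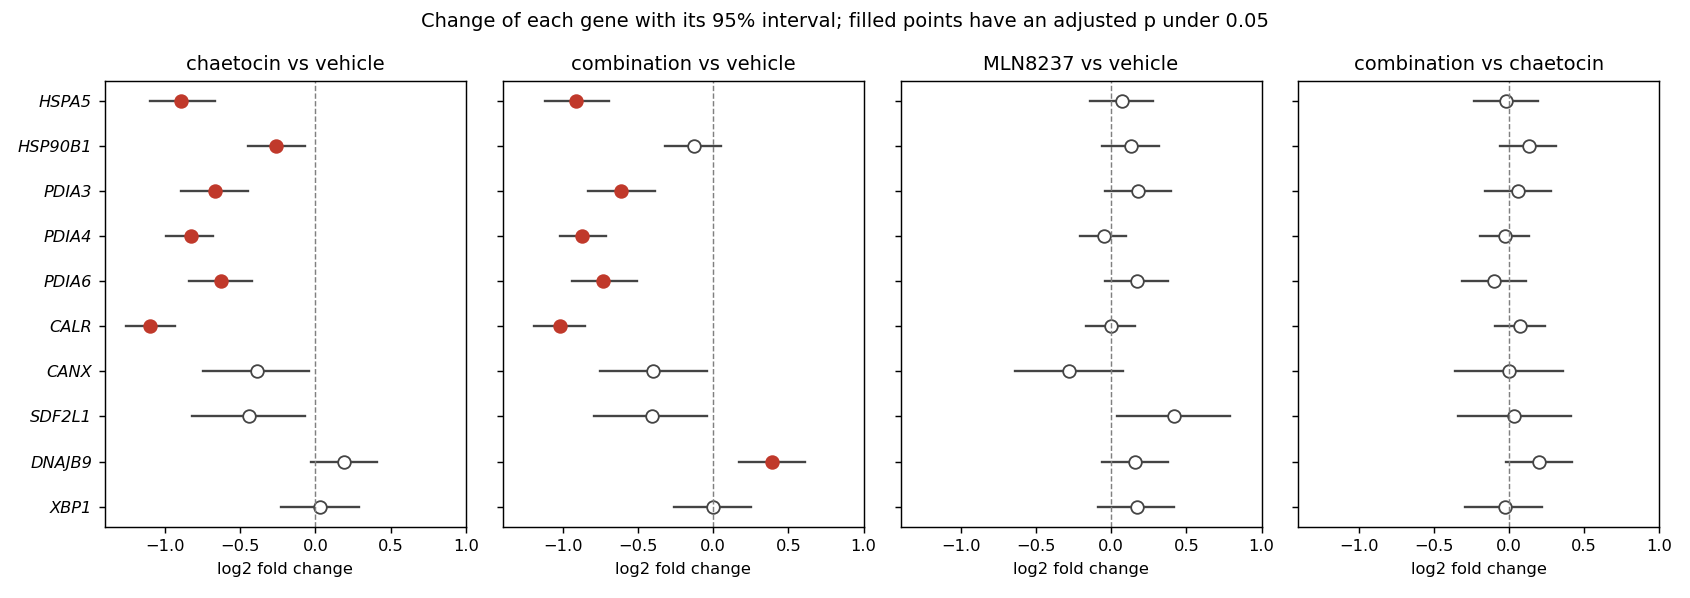
Log2 fold change of each gene (x axis) with its 95% interval in 4 comparisons; filled points have an adjusted p under 0.05. CALR, HSPA5, PDIA4, PDIA3 and PDIA6 are filled and to the left with chaetocin and with the combination, and no point is filled with MLN8237 alone or for the combination against chaetocin.

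Some counts could be shared with overlapping genes, since no source used here says whether counting used strand. HSPA5 (ENSG00000044574, chr9:127997132-128003609), PDIA4 (ENSG00000155660, chr7:148700154-148725733), SDF2L1 (ENSG00000128228, chr22:21996550-21998587) and XBP1 (ENSG00000100219, chr22:29190543-29196585) overlapped no other gene in the authors' table, whose coordinates were read as hg19. CALR (ENSG00000179218, chr19:13049392-13055303) contains CTC-425F1.4, with 15.7% as many counts and a log2 fold change of -1.065 with chaetocin. PDIA6 (ENSG00000143870, chr2:10923517-10978103) overlaps ATP6V1C2 over 1720 bases, and that gene had 46.9% as many counts and a change of -0.62. DNAJB9 (ENSG00000128590, chr7:108210012-108215294) overlaps THAP5 over 183 bases and PNPLA8 over 99, genes with 192% and 154% as many counts as DNAJB9 itself. THAP5 was higher by 0.338 on the log2 scale with chaetocin and by 0.431 with the combination, and PNPLA8 by 0.388 and 0.584. Their part in the rise of DNAJB9 was not tested. PDIA3 (ENSG00000167004, chr15:44038590-44065477) overlaps CATSPER2P1, with 6.96% as many counts. HSP90B1 (ENSG00000166598, chr12:104323885-104347423) and CANX (ENSG00000127022, chr5:179105629-179157926) overlapped genes with few counts, at most 2.68% of their own.

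Across the 12 libraries the log2 CPM of PDIA3 and PDIA6 had a Pearson correlation of 0.99 with HSPA5, CALR 0.98 and PDIA4 0.97. HSP90B1 had 0.88, SDF2L1 0.87, XBP1 0.38, CANX 0.32 and DNAJB9 -0.65. The libraries form 2 clusters by chaetocin, so these values mostly record the gap between the clusters and are given as a description. Within the 6 libraries without chaetocin and the 6 with it, PDIA6 had 0.88 and 0.85 and PDIA3 0.9 and 0.81. CALR had -0.1 and 0.02 there, PDIA4 had -0.85 and 0.66, and CANX had -0.95 and -0.29. Of the libraries without chaetocin, MLN8237 replicate 3 was the highest for HSPA5 (766.8 CPM), PDIA3 and PDIA6. It was the lowest of them for PDIA4 (390.9 CPM) and CANX (576.6 CPM). How far the correlations without chaetocin rest on that library was not tested. The genes outside the 10 with the highest values over 12 libraries were NEK3, ATP6AP1, ARL6IP5, MLPH and PPT1, from 0.993 to 0.995. Of 12594 genes with a mean of at least 5 CPM, 10.5% had a value over 0.9, and the median was 0.26.

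Other genes of the same machinery were counted in lists. Beside these counts, 11.9% of all tested genes were called lower and 12.6% higher with chaetocin, and 18.3% and 20.1% with the combination. With 1 library left out, 15.7% to 19.9% of all tested genes were called with chaetocin. The combination had 28.2% to 38.6%. Without the treated libraries numbered 3 these shares were 33% and 47.2%. Differences between lists, or between a list and all genes, were not tested. Among 15 genes of N-glycan processing and the lectin cycle, in which CALR and CANX act, 9 were lower with chaetocin and none higher, with a median log2 fold change of -0.38. With the combination 11 were lower. UGGT1, the sensor that sends unfolded glycoproteins back to CALR and CANX, went from 146 ± 16.5 to 83.4 ± 7.52 CPM with chaetocin (SD, n = 3, adjusted p = 0.000341). MOGS, the first glucosidase of the cycle, went from 79.3 ± 0.27 to 56.6 ± 2.22 CPM (adjusted p = 0.000409).

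Among 17 tested HSP70 cofactors and other folding partners of the endoplasmic reticulum, 7 were lower with chaetocin and 2 higher (median -0.3). Leaving out single libraries gave as few as 4 calls (without vehicle replicate 2 or chaetocin replicate 3) and 5 without chaetocin replicate 2, and leaving out the treated libraries numbered 3 gave 15. The prolyl isomerase FKBP9 fell from 110 ± 2.74 to 52.5 ± 2.36 CPM (adjusted p = 1.95e-05). DNAJC1 rose from 14.6 ± 1.13 to 22.8 ± 3.0 CPM (adjusted p = 0.00517).

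Of 17 tested oxidoreductases other than the 3 isomerases above, 6 were lower with chaetocin and none higher (median -0.21). ERO1L, which reoxidizes disulfide isomerases, went from 129 ± 6.17 to 85.2 ± 6.33 CPM (adjusted p = 0.00198). With both compounds 8 were lower, or 5 without combination replicate 1.

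Degradation and translocation into the endoplasmic reticulum had shares called lower near that of all tested genes. Of 18 degradation genes 2 were lower with chaetocin (median -0.08), OS9 with an adjusted p of 0.000956 among them. That count was 1 when any 1 of the vehicle libraries, or chaetocin replicate 2 or 3, was left out. Of 23 translocation genes 3 were lower (median -0.05), or 1 without vehicle replicate 2 or chaetocin replicate 2.

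Among 14 sensors and transducers of the unfolded protein response 4 were lower with chaetocin and 1 higher (median -0.14), or 3 calls in all when any 1 library was left out. With the combination 5 were lower and 3 higher (median 0.13). ATF6 went from 49.6 ± 2.57 to 34.3 ± 2.87 CPM with chaetocin (adjusted p = 0.00401). Of 15 genes in the PERK and ATF4 arm 6 were higher with chaetocin and none lower, or 3 higher without chaetocin replicate 3. With the combination 5 were higher and 2 lower. The transcription factor ATF3 rose from 5.55 ± 0.131 to 15.8 ± 1.45 CPM (adjusted p = 5.11e-05). PPP1R15A, which encodes a phosphatase subunit acting on eIF2α and known as GADD34, rose from 26.2 ± 1.15 to 59.4 ± 7.25 CPM (adjusted p = 0.000336).

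Of 16 cytosolic counterparts of these chaperones, 5 were higher with chaetocin and none lower (median 0.21). With the combination 6 were higher and 1 lower (median 0.23). HSPH1, a cytosolic nucleotide exchange factor for HSP70, rose from 288 ± 1.8 to 403 ± 18.4 CPM with chaetocin (adjusted p = 0.000781). HSPA1A and HSPA1B were also higher, but they are near-identical copies and the split of reads between them is uncertain. With MLN8237 alone edgeR called 0 of the 135 tested genes of these 8 lists, 13 of which had an unadjusted p under 0.05. Across all 22831 tested genes 1938 did.

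**Figure D5:**
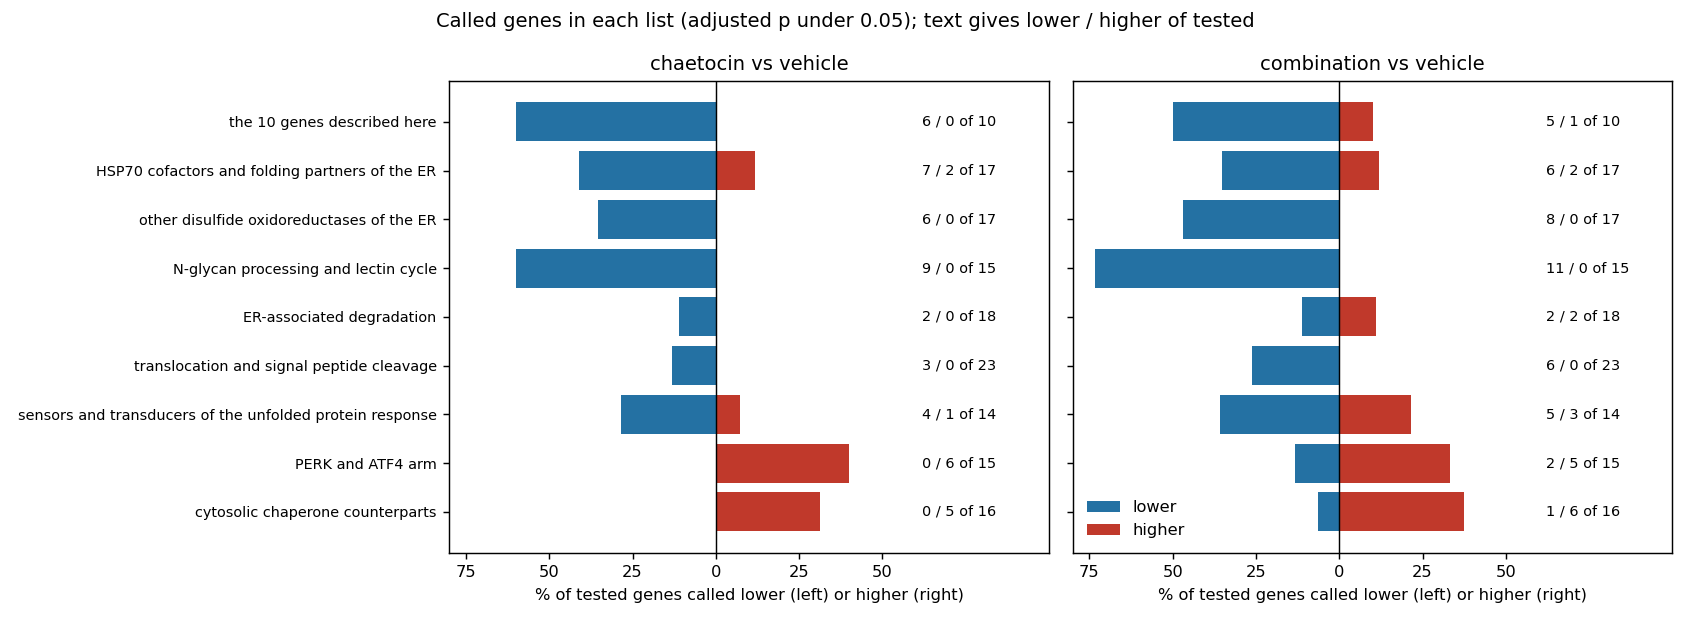
Percentage of tested genes called lower (left) or higher (right) in the 10 genes and in each of 8 lists, with chaetocin and with the combination against vehicle; the text in each row gives the counts lower and higher of those tested. With chaetocin the PERK and ATF4 arm has 6 of 15 genes higher and the N-glycan list 9 of 15 lower.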

How the data were processed

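RNA of 12 PANC-1 libraries was sequenced. Per the submitters' processing notes the tools were CASAVA 1.9, HTSeq and TopHat 12.0.6 with build hg19, their roles and order not being stated. The authors deposited 1 table in which each gene has, per the file headers, gene counts and RPKM values for the 12 libraries. The deposited counts were analysed as they stand, and the deposited RPKM values served only to check the order of levels. Counts were filtered by edgeR's default filter by group, scaled by TMM and fitted with 4 group means over all 12 libraries in edgeR 4.0.16 (R 4.3.3). Each contrast used the quasi-likelihood F test with robust estimation, Benjamini-Hochberg adjusted over 22831 genes and called at an adjusted p under 0.05. Log2 CPM used a prior count of 2. Alternatives were DESeq2 1.42.0 and limma-voom (limma 3.58.1), RLE scaling, no filter, at least 1 CPM in 6 libraries, only the groups compared, a replicate block, an absolute log2 fold change of at least 1, omission of the treated libraries numbered 3, and leaving out each library. Only the edgeR fit of chaetocin against vehicle was tested on simulated data, drawn from the same kind of model that edgeR assumes. The other contrasts and tools were not tested in this way. The 10 genes and the lists were chosen with earlier results of these data known. Genes named from a list were among the up to 4 with the smallest p with chaetocin and a mean of at least 5 CPM. The endothelial marker PECAM1 was not matched.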

Additional observations from a re-analysis of the deposited data

How the results depend on the processing

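HSPA5, PDIA3, PDIA4, PDIA6 and CALR were called lower in all 14 alternatives of the comparisons of chaetocin with vehicle, the combination with vehicle and the combination with MLN8237, apart from the added fold threshold. With an absolute log2 fold change of at least 1 as well, 1 gene, CALR, was called in each. Otherwise 5 to 8 of the 10 genes were called with chaetocin and 5 to 8 with the combination against vehicle. Across all tested genes these fits called 12.4% to 35.8% with chaetocin and 21.1% to 47.2% with the combination. Leaving out each library gave 5 with chaetocin, 5 to 6 with the combination against vehicle and 6 to 8 against MLN8237. Of all tested genes, 15.7% to 19.9%, 28.2% to 38.6% and 32.9% to 44.5% were called in those fits. No alternative called any of the 10 with MLN8237 alone, for the combination against chaetocin or for the interaction.

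The replicate numbers were not taken to pair the libraries, since not every same-numbered pair had a correlation of deviations over 0.1. Of 18 such pairs 9 did (-0.153 to 0.462, median 0.1065, against a median of -0.075 for other pairs), the treated libraries numbered 3 having 0.436 to 0.462 with each other, and 7 of 12 libraries correlated best with their own number. Whether same-numbered libraries share a batch was not tested by this rule. With a replicate block 8 of the 10 genes were called with chaetocin, 8 with the combination against vehicle and 7 against MLN8237. The block called 29.8%, 43.9% and 51.5% of all tested genes in those comparisons. CANX (adjusted p = 0.0229 with chaetocin and 0.0162 with both) and SDF2L1 (0.0385 and 0.0398) were the genes gained. Other counts of list genes moved too: with chaetocin the degradation list had 4 calls with DESeq2, 6 with only the groups compared, 5 with the block and 7 without the treated libraries numbered 3. The sensors had 8 with only the groups compared, the PERK and ATF4 arm 10 with the block (8 higher and 2 lower), and the cytosolic list 8 to 9 with DESeq2, only the groups compared or without those libraries. Translocation genes had 1 call with no filter and 5 with only the groups compared. Of all tested genes, 28.4% were called with chaetocin by DESeq2, 35.8% with only the groups compared and 12.4% with no filter. Without the treated libraries numbered 3 it was 33%.

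The signs that turned belonged to changes that were not called. In log2 units, XBP1 with chaetocin was -0.012 and HSPA5 with MLN8237 was -0.041 without the treated libraries numbered 3. CALR with MLN8237 was 0.005 with RLE scaling and with DESeq2. XBP1 with the combination was 0.012 with RLE scaling and with DESeq2, 0.064 with the stricter filter and 0.002 with only the groups compared. For the combination against chaetocin, CANX was 0.004 with RLE scaling and with DESeq2, 0.03 with the stricter filter, and 0.002 with limma-voom, only the groups compared and the replicate block. HSPA5 was 0.011 there with the stricter filter. In the interaction PDIA4 was -0.008 with no filter and -0.031 without the treated libraries numbered 3, and HSP90B1 was 0.033 with the stricter filter, 0.002 with limma-voom and 0.078 without those libraries. The cause was not tested.

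Leaving out single libraries turned the sign of XBP1 with chaetocin (-0.027 to 0.078) and with the combination (-0.133 to 0.073), and with MLN8237 of CALR (-0.049 to 0.017) and HSPA5 (-0.043 to 0.128). For the combination against chaetocin it turned CANX (-0.089 to 0.071), HSPA5 (-0.056 to 0.039), SDF2L1 (-0.043 to 0.119) and XBP1 (-0.161 to 0.037), and against MLN8237 CANX (-0.334 to 0.016). For the interaction it turned DNAJB9 (-0.061 to 0.112), HSP90B1 (-0.052 to 0.08), HSPA5 (-0.156 to 0.014) and PDIA4 (-0.019 to 0.049).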
